A study of Rattus norvegicus with 10 samples.

Results

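Potassium channel genes were followed through the 5 groups of rat oligodendrocyte lineage cells. The members are the genes of the deposited annotated table whose symbol starts with Kcn, then any further letters, then a digit, which gave 69 of 16129 genes. By symbol they fall into 30 voltage-gated pore subunits, 9 auxiliary subunits of voltage-gated channels, 12 inward rectifiers, 10 two-pore-domain leak channels, and 8 calcium- or sodium-activated channels with their subunits. Kcnj10, the main glial inward rectifier, has no symbol in that table and so lies outside the rule. It was matched by its Entrez identifier and its values are given beside its partner gene. Kcnd2 and Kcnk6, which have known roles in glia, are not analysed here.

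All cells were primary cultures from the cortices of newborn Sprague-Dawley rats, with 2 libraries per group. Oligodendrocytes (OLs) on differentiation day 5 (DD5) had been transfected 5 days earlier with 30 nM of a miR-145-5p mimic, of miR-145-5p and miR-219 mimics, or of a scrambled mimic (miR-ctl). These agents and doses are those of the labels. The study's sequencing methods name a lentivirus in place of the mimic, and the labels were followed. Oligodendrocyte progenitor cells (OPCs) had been transfected 24 h earlier with 30 nM of a miR-145-5p inhibitor (anti-miR-145) or of a scrambled inhibitor (anti-miR-ctl). The comparisons ask what the mimics do to OLs and the inhibitor to OPCs. OL miR-ctl was also set against OPC anti-miR-ctl, which differ in cell stage and in medium, time since transfection and kind of control oligonucleotide, and these cannot be told apart.

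Potassium channels let potassium leave or enter the cell and set the resting membrane potential. OPCs carry large delayed-rectifier and A-type voltage-gated currents, which shrink as the cells mature, while mature OLs rely on inwardly rectifying channels that also take up the potassium released by active axons. Voltage-gated pores open on depolarisation and are tuned by auxiliary subunits, inward rectifiers pass current best near rest, two-pore-domain channels carry a steady leak, and a further group opens when calcium or sodium rises inside the cell.

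The mimic carries the sequence of mature miR-145-5p, which is printed here as the molecule whose level was altered, with its seed (bases 2 to 8) in capitals. RefSeq (GRCr8) places it at chr18:57370033-57370055 on the minus strand.
rno-miR-145-5p: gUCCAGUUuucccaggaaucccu

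RefSeq promoters (GRCr8, the 250 bases before and the 50 bases after a start) were found for 45 of the 69 genes, which together have 51 starts. Their median GC content was 62.3% against 51.7% over 33469 promoters of all genes, with a range from 34.0% to 80.7%. The motif ACAAAG, or its reverse complement CTTTGT, bound by SOX factors, occurred in 6 of 51 (11.8%) and in 18.8% of all promoters. A TATAAA or TTTATA was present in 1 of 51 (2.0%) and in 14.2% of all promoters. The 4 promoters below belong to Kcnj16 and Kcnj2, which are neighbours on chromosome 10 and moved in opposite directions between the stages, to Kcnj5, which changed most in OPCs by p-value, and to Kcnh1. Capitals mark the SOX motif.
Kcnj16, chr10:96517074-96517373, plus strand: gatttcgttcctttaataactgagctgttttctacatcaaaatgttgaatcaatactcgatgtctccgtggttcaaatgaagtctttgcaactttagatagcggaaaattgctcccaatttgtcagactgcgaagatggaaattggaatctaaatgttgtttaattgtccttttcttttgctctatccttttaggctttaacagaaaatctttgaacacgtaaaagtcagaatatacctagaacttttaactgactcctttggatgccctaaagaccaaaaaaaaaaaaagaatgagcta
Kcnj2, chr10:96559975-96560274, plus strand: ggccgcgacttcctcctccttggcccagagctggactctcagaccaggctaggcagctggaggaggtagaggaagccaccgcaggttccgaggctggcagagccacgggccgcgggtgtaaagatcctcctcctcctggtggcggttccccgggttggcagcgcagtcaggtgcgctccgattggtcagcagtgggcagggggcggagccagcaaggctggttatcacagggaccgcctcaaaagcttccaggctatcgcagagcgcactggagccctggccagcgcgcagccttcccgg
Kcnj5, chr8:39011047-39011346, minus strand: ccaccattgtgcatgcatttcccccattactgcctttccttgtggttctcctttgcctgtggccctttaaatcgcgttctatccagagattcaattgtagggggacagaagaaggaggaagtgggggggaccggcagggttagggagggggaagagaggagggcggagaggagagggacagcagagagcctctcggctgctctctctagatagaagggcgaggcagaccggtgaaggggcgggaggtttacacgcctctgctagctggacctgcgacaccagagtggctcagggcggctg
Kcnh1, chr13:106252966-106253265, plus strand: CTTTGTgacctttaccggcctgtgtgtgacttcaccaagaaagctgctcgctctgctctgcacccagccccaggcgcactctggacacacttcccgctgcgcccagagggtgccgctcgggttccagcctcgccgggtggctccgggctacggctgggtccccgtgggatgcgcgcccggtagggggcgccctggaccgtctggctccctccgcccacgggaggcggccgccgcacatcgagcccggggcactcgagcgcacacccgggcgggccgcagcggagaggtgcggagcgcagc
The Kcnj16 promoter had the lowest GC content of the 51 (34.0%), and that of its neighbour Kcnj2 was 67.0%. Of these 4, Kcnh1 was the promoter that held the SOX motif, at its upstream end.

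Library totals ran from 33505706 to 42684206 estimated counts, so a floor of 3 counts lies between 0.0681 and 0.0921 CPM. Levels are CPM (counts scaled to a common library total) after TMM normalization over the 10 libraries. They are not divided by transcript length, so levels are compared between libraries and not between genes. One label of the 2 OL miR-145 libraries names both mimics, whereas their titles and descriptions name miR-145 alone, and the titles were followed. Nothing in the labels says that the 2 libraries of a group came from separate cultures. The study's reporting summary, however, describes every N as a biological replicate. For primary cells it equates N with the cultures of an individual mouse, and does not give the source for rat cells. The p-values measure the spread between these libraries. The summed level of 12 OL markers was 16202 to 35521 CPM in OLs and 1114 to 1339 CPM in OPCs, as the labels have it. OLs also held astrocyte RNA: 10 astrocyte markers summed to 5925 and 6948 CPM in OL miR-ctl, 9882 and 14566 CPM in OL miR-145, 7170.4 and 12113 CPM in OL miR-145+miR-219, and 773 and 805 CPM in OPC anti-miR-ctl. In such bulk cultures fewer cells of a type and less RNA per cell cannot be told apart. The level of miR-145-5p itself was not analysed here.

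The potassium channel genes were detected widely in both stages. At least 5 counts in both libraries were present for 60 of 69 members in OPC anti-miR-ctl and for 55 in OL miR-ctl, and 17 and 13 members respectively exceeded 10 CPM in both libraries. Their summed level was 989 and 941 CPM in OPC anti-miR-ctl, 925 and 1076 CPM in OPC anti-miR-145, 706 and 558 CPM in OL miR-ctl, 894 and 746 CPM in OL miR-145, and 849.7 and 632 CPM in OL miR-145+miR-219. OL miR-145 libraries were both above both OL miR-ctl libraries, and the OPC control libraries were higher still. The mimic difference leaned on Kcna2. Voltage-gated pores summed to 575 and 459 CPM in OL miR-145 and 407 and 298 CPM in OL miR-ctl. Without Kcna2 they summed to 293 and 276 CPM against 290.5 and 224 CPM, so the groups overlapped. The make-up of the summed level of all 69 members differed by stage. Leak channels of the two-pore-domain class summed to 78.9 and 77.0 CPM in OPC anti-miR-ctl and 23.5 and 21.9 CPM in OL miR-ctl. A single gene, Kcnk10, carried that difference, since the other 9 summed to 13.9 and 14.6 CPM in OPCs and 15.0 and 15.4 CPM in OLs. Auxiliary subunits summed to 290.3 and 297 CPM against 93.7 and 91.3 CPM, with 258 and 264 CPM from Kcnip3 in the progenitors, and the other 8 ran the other way, at 32.6 and 33.6 CPM in OPCs and 47.5 and 71.0 CPM in OLs. Inward rectifiers summed to 46.5 and 41.9 CPM in the progenitors and 108 and 82.9 CPM in OLs. That sum turned on Kcnj12, without which it was 43.2 and 38.7 CPM in OPCs and 32.0 and 31.2 CPM in OLs.

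**Figure D1:**
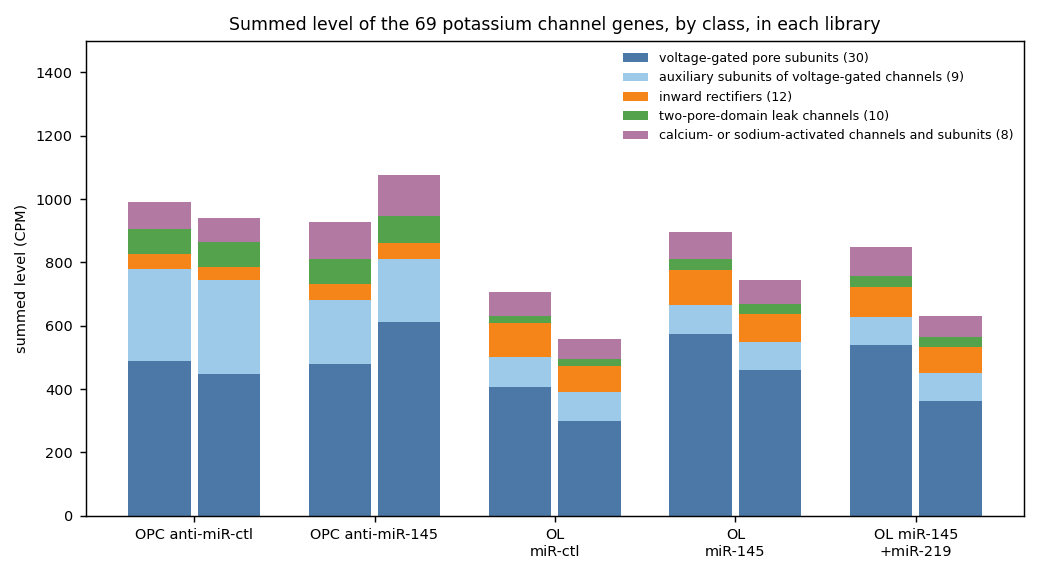
Stacked bars give the summed level in CPM of the 69 potassium channel genes in each of the 10 libraries (2 bars per group), coloured by class with the number of genes in brackets. The lowest bars are OL libraries, with OL miR-ctl at 706 and 558 CPM and the library numbered 2 of OL miR-145+miR-219 at 632 CPM, and the two-pore-domain and auxiliary classes are thinner in all 6 OL libraries than in the 4 OPC libraries.

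OLs and OPCs differed in most potassium channel genes. Of 66 members tested between OL miR-ctl and OPC anti-miR-ctl, 23 were higher and 26 lower in OLs (edgeR, adjusted p under 0.05). Over all genes tested 28.8% were higher and 28.7% lower. The groups did not overlap for 26 members in the higher and 32 in the lower direction, where the shares over all genes were 41.2% and 40.5%. The members had a median log2 fold change of -0.35 and a median size of change of 1.53, against 0.01 and 0.58 over all genes. Members also had the larger median size for both mimics against miR-145 (0.30 against 0.12), where no gene passed in edgeR without a replicate block. Here and below, sizes of change were not compared at matched count levels. Kcne5, Kcng1, Kcnip4, Kcnj1, Kcnj3, Kcnk15, Kcnk9 and Kcns2 passed the count filter through 1 group alone and were all called, which leaves 41 calls among 58 members (20 higher, 21 lower). The calls leaned on the OPC controls: 28 members were called without the library numbered 2 of OPC anti-miR-ctl and 33 without that numbered 1. In all 4 fits that left out a library, 28 of the members were called. Of the genes described below, Kcna4, Kcna5, Kcnab2, Kcnab3, Kcnd3, Kcnh5, Kcnj1, Kcnj4, Kcnj16, Kcnk3, Kcnk13 and Kcnq3 lost their call in at least 1 of these fits. Astrocyte markers also separated the stages, with 9 of 10 higher in OLs and their levels given above. Among the 9, Gjb6 was at 0 in 1 of the OPC anti-miR-ctl libraries. It passed the count filter only through OL miR-ctl, so its call adds no support. The part of the astrocytes in the OL values was not tested.

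Among inward rectifiers Kcnj12 and Kcnj2, of 1 subfamily, differed between the stages in opposite directions. Whether the same cells hold both was not tested. Of 11 inward rectifiers tested, 3 were higher and 5 lower in OLs, against 28.8% and 28.7% of all genes. Their median was -0.73 on the log2 scale. Among the 9 that did not pass the count filter through 1 group alone, 3 were higher and 3 lower. Kcnj12, a strong inward rectifier, stood at 75.5 and 51.7 CPM in OL miR-ctl and 3.32 and 3.15 CPM in OPC anti-miR-ctl (log2 fold change 4.29, SE 0.22, adjusted p = 0.000127). Kcnj2, a strong rectifier of the same subfamily, stood at 2.24 and 3.10 CPM in OLs and 20.3 and 17.2 CPM in OPCs (log2 fold change -2.82, SE 0.20, adjusted p = 0.000316). The groups were well apart for both genes and in opposite directions. Kcnj9, a G-protein-gated subunit, was higher in OLs by 1.40 on the log2 scale, at 13.4 and 12.6 CPM against 4.96 and 4.85 CPM. Kcnj5, another G-protein-gated subunit, had 0.327 and 0.184 CPM in OLs and 3.46 and 3.70 CPM in OPCs (log2 fold change -3.77). Kcnj16, which forms channels with Kcnj10, was higher in OLs at 8.12 and 5.53 CPM against 3.32 and 3.23 CPM (log2 fold change 1.06, adjusted p = 0.0136). Kcnj10 itself had 354 and 306 CPM in OLs and 94.8 and 84.1 CPM in OPCs (log2 fold change 1.88, SE 0.11, adjusted p = 0.000174). Kcnj4 was lower by the test. Kcnj1 and Kcnj3, near or at 0 in OL miR-ctl, were called lower too, but both passed the count filter only through the OPC controls, where they are high, so their calls add no support. Counts of Kcnj3 were 0 in both OL miR-ctl libraries, and its mean in OPC anti-miR-ctl was 10.3 times a floor of 3 counts per library. Here and below, such ratios take the mean of the higher group and leave out its spread. Kcnj8, a pore of ATP-sensitive channels typical of mural cells, was at 0 in all 4 OPC libraries and between 0.0614 and 0.272 CPM in OLs. Markers of fibroblasts or mural cells summed to 46.3 and 31.8 CPM in OL miR-ctl and 4.14 and 4.30 CPM in OPC anti-miR-ctl. Most of the OL sum came from Tagln (26.9 and 16.6 CPM) and Notch3 (15.6 and 10.8 CPM). Of 5 such markers tested, 3 were higher and 0 lower in OLs, against 28.8% and 28.7% of all genes. Col3a1 ran the other way without passing, at 0.126 and 0.798 CPM in OLs against 1.22 and 1.89 CPM. The part of these markers in Kcnj8 was not tested.

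Leak channels were mostly lower in OLs, with 5 lower and 2 higher of the 7 that passed the count filter through both groups. Over all genes tested, 28.7% were lower and 28.8% higher. Kcnk9 and Kcnk15, also called lower, passed it only through the OPC controls and add no support. Kcnk10, a mechanically and lipid-gated leak channel, had 8.52 and 6.48 CPM in OL miR-ctl and 65.0 and 62.4 CPM in OPC anti-miR-ctl (log2 fold change -3.09, SE 0.15, adjusted p = 0.000104). Its close relative Kcnk2 had 0.151 and 0.0307 CPM against 2.69 and 2.03 CPM (log2 fold change -4.58, and -6.12 or -3.95 without the library numbered 1 or 2 of OL miR-ctl). Kcnk5, an alkaline-activated leak channel, had 0.754 and 0.276 CPM against 3.23 and 3.10 CPM (log2 fold change -2.58, and -3.50 without the library numbered 1 of OL miR-ctl). Kcnk3 and Kcnk13 were also lower. Kcnk13, known in brain from microglia, had 1.48 and 2.09 CPM in OLs and 2.88 and 3.43 CPM in OPCs. The 12 microglial markers summed to 415 and 613 CPM in OL miR-ctl and 1113 and 1035 CPM in OPC anti-miR-ctl. They were split, with 1 called higher and 6 lower in OLs. Their groups did not overlap for 6 in the higher and 6 in the lower direction, against 41.2% and 40.5% of all genes. The part of these markers in the Kcnk13 value was not tested. Kcnk9 was at 0 in both OL miR-ctl libraries and 0.468 and 0.384 CPM in OPCs, where its mean was 5.08 times the floor of the OLs. Against that trend, Kcnk1, a weakly rectifying leak channel expressed by astrocytes, had 6.23 and 4.05 CPM in OLs and 0.327 and 0.192 CPM in OPCs (log2 fold change 4.27, adjusted p = 0.000675). Kcnk12, usually electrically silent, had 4.92 and 7.83 CPM against 0.702 and 0.575 CPM (log2 fold change 3.30).

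Voltage-gated pores moved both ways, with 11 higher and 10 lower of 29 tested (9 and 10 of 27 without the members that passed the filter through 1 group). The shares over all genes were 28.8% higher and 28.7% lower. Kcna3, a shaker-family delayed rectifier linked to OPC proliferation, was lower in OLs at 13.1 and 17.7 CPM against 49.7 and 40.4 CPM (log2 fold change -1.56, SE 0.18). Kcna4, an A-type shaker subunit, was lower too, at 0.176 and 0.338 CPM against 0.819 and 0.904 CPM. Kcna6 rose to 35.4 and 31.3 CPM from 19.8 and 19.3 CPM (log2 fold change 0.76, SE 0.10). Kcna5, at 0.930 and 0.983 CPM against 0.327 and 0.0822 CPM, was higher, but not without the library numbered 2 of OPC anti-miR-ctl (edgeR, adjusted p = 0.0992). Kcna1, at 64.3 and 41.5 CPM against 40.5 and 35.9 CPM, did not pass (adjusted p = 0.118), and neither did Kcna2, at 117 and 73.9 CPM against 122 and 109.8 CPM. Fast-firing channels of the Kcnc family parted company, since Kcnc1 fell from 21.9 and 19.2 CPM to 2.46 and 2.03 CPM (log2 fold change -3.19, adjusted p = 0.000115) and Kcnc4 rose from 1.40 and 1.10 CPM to 6.61 and 5.04 CPM (log2 fold change 2.21). The same held for the slow M-type channels, where Kcnq5 was at 4.52 and 3.19 CPM in OLs against 24.6 and 24.9 CPM in OPCs, and Kcnq3 at 9.55 and 6.97 CPM against 3.58 and 3.01 CPM. Kcnd3, an A-type pore, had a log2 fold change of -0.99. Kcnh1 and Kcnh5, ether-à-go-go pores, were higher by 2.08 and 2.00 on the log2 scale. Kcns2, a silent modifier subunit, was at 0 in both OPC anti-miR-ctl libraries and at 2.01 and 1.04 CPM in OL miR-ctl. Its mean in OL miR-ctl was 20.0 times the floor of the OPCs.

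Among the auxiliary subunits, Kcnip3, a calcium sensor that binds A-type pores and also acts in the nucleus, had 46.2 and 20.3 CPM in OL miR-ctl and 258 and 264 CPM in OPC anti-miR-ctl (log2 fold change -2.97, SE 0.39, adjusted p = 0.00222), and the log2 fold change was -3.68 without the library numbered 1 of OL miR-ctl. Kcne4, a single-pass subunit that inhibits Kcnq and shaker channels, had 9.50 and 25.3 CPM against 0.211 and 0.274 CPM (log2 fold change 6.15, SE 0.67, adjusted p = 0.00121). Its 2 OL libraries differed by 2.67-fold, yet both lay far above the OPCs, and without the library numbered 2 the log2 fold change was 5.28. Kcnab2, a cytoplasmic subunit of shaker channels, was higher by 0.54 on the log2 scale and Kcnab3 had a log2 fold change of -1.61. Of the ion-activated channels, the small-conductance calcium-activated pores Kcnn1, Kcnn2 and Kcnn3 were all higher in OLs, with log2 fold changes of 1.63, 1.41 and 1.68. The sodium-activated Kcnt1 was lower at 16.7 and 14.2 CPM against 46.3 and 41.3 CPM (log2 fold change -1.50, SE 0.12). Kcnn4, the intermediate-conductance pore, and Kcnma1, the large-conductance pore, did not pass the test.

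**Figure D2:**
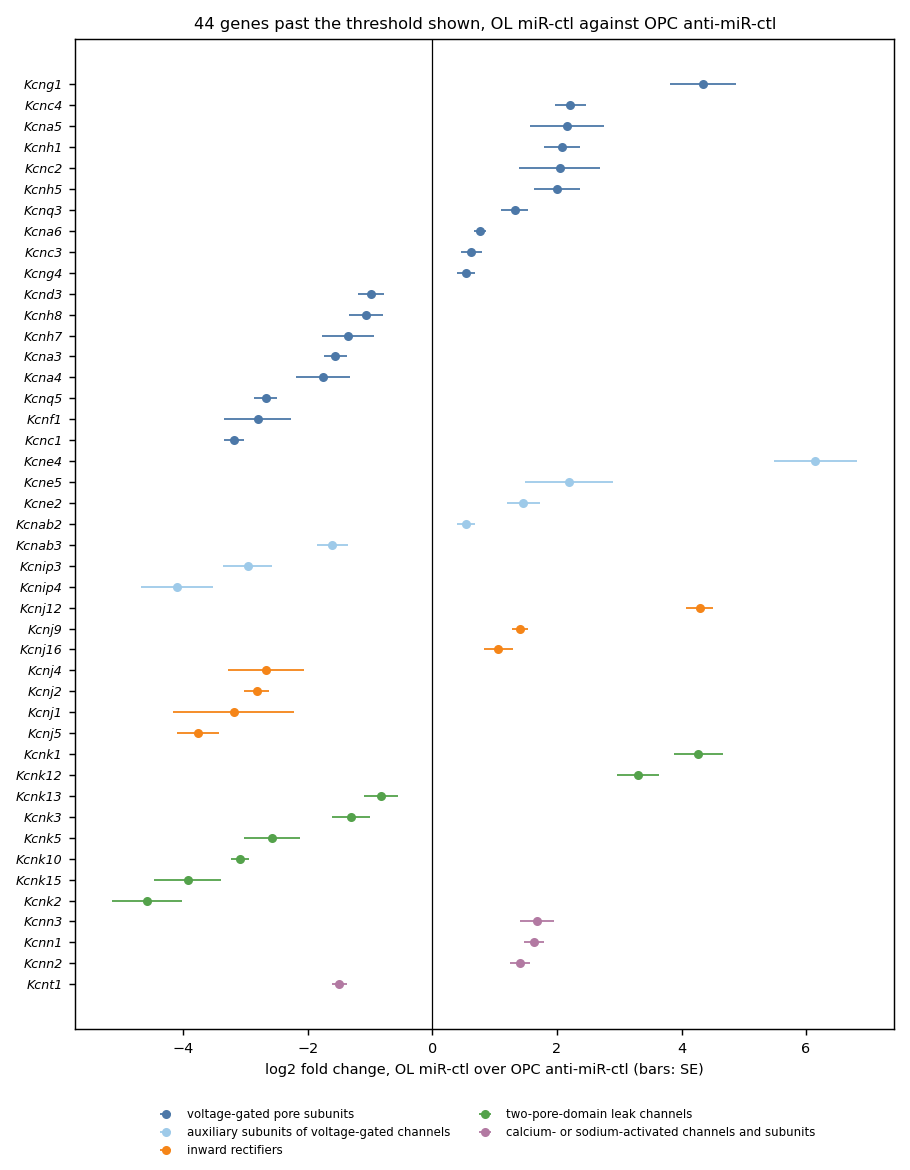
Points give the log2 fold change of OL miR-ctl over OPC anti-miR-ctl for 44 of the 49 members past the threshold, coloured by class, and bars give 1 SE. The 3 members at 0 in both libraries of a group (Kcnj3, Kcnk9 and Kcns2) and 2 others are left out, and within the leak channels Kcnk1 and Kcnk12 lie to the right of 0 while the others lie to the left.

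With the miR-145 inhibitor in OPCs, potassium channel genes were called about as often as any gene. Of 64 members tested, 10 (15.6%) were higher and 9 (14.1%) lower with anti-miR-145, where 12.1% of all genes tested were higher and 16.0% lower. The groups did not overlap for 20 members in the higher and 21 in the lower direction, against 32.8% and 35.1% of all genes. The members' median was 0.01 on the log2 scale and their median size of change 0.47, against 0.00 and 0.27 over all genes. Without the library numbered 1 of OPC anti-miR-ctl 12 members were called, and without that numbered 2, 13. In all 4 fits that left out a library, 12 members were called, namely Kcna2, Kcnf1, Kcng2, Kcnj5, Kcnq5 and Kcnt1 higher, and Kcnh8, Kcnip3, Kcnj2, Kcnk5, Kcnmb4 and Kcnq3 lower. With all 5 groups in a single fit, 12 members were also called. Of the marker lists, 1 astrocyte gene was higher and 5 lower of 9 tested (476 and 521 CPM summed with the inhibitor, 773 and 805 CPM with its control), 6 microglial genes were higher and 5 lower of 12 (912 to 1149 CPM against 1035 to 1113 CPM), and 5 neuronal genes were higher of 9 (628 and 769.6 CPM against 609 and 645 CPM). Their part in the channel values was not tested.

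Kcnj5, a G-protein-gated rectifier, had the smallest p-value. It was at 21.8 and 19.3 CPM with the inhibitor and 3.46 and 3.70 CPM with its control (log2 fold change 2.53, SE 0.13, adjusted p = 6.22e-05). All 6 OL libraries had under 1 CPM. Its chromosomal neighbour Kcnj1 was at 0.323 and 0.0908 CPM against 0.140 and 0.164 CPM, so its groups overlapped. Kcnj9, which also forms G-protein-gated channels, rose to 7.82 and 7.06 CPM from 4.96 and 4.85 CPM (log2 fold change 0.62). Kcnj2 fell to 7.42 and 7.04 CPM from 20.3 and 17.2 CPM (log2 fold change -1.36, SE 0.12, adjusted p = 0.000334), and Kcnj16 next to it was at 2.51 and 3.22 CPM against 3.32 and 3.23 CPM. Kcnj10 was at 94.8 and 125 CPM against 94.8 and 84.1 CPM (log2 fold change 0.31, adjusted p = 0.124).

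Among voltage-gated genes, Kcnq5 rose to 41.4 and 49.6 CPM from 24.6 and 24.9 CPM (log2 fold change 0.89, SE 0.11, adjusted p = 0.00118) while Kcnq3 fell to 0.472 and 0.954 CPM from 3.58 and 3.01 CPM (log2 fold change -2.18, SE 0.33, adjusted p = 0.00325). These M-type subunits, which can share a channel, thus moved in opposite directions. Kcna2, a shaker subunit of axons and OLs, rose to 169 and 223 CPM from 122 and 109.8 CPM (log2 fold change 0.77, SE 0.13, adjusted p = 0.00577). Its neighbour Kcna3 was at 50.1 and 72.8 CPM against 49.7 and 40.4 CPM and did not pass (adjusted p = 0.0941), nor did Kcna1, at 22.5 and 33.2 CPM against 40.5 and 35.9 CPM (adjusted p = 0.0981). The silent modifiers Kcnf1 and Kcng2 rose, Kcnf1 to 6.70 and 6.63 CPM from 3.20 and 3.21 CPM and Kcng2 to 1.19 and 0.590 CPM from 0.140 and 0.164 CPM. Kcnc4 fell to 0.422 and 0.363 CPM from 1.40 and 1.10 CPM, and Kcnh8, an ELK-type pore, to 0.919 and 1.09 CPM from 2.34 and 2.30 CPM. Kcnh1 rose by 1.41 on the log2 scale, to 1.07 and 1.59 CPM from 0.538 and 0.466 CPM. Kcnd3 fell to 71.1 and 90.6 CPM from 115 and 112 CPM (log2 fold change -0.48, adjusted p = 0.0224), and its calcium-binding partner Kcnip3 to 166 and 159 CPM from 258 and 264 CPM (log2 fold change -0.67, SE 0.08, adjusted p = 0.00124).

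The ion-activated and leak classes held 4 of the calls. Kcnt1, the sodium-activated pore, rose to 82.6 and 94.9 CPM from 46.3 and 41.3 CPM (log2 fold change 1.03, SE 0.10, adjusted p = 0.000451). Kcnn3 rose to 5.39 and 6.49 CPM from 3.79 and 3.73 CPM. Kcnmb4, the neuronal-type subunit of the large-conductance pore, fell to 6.98 and 6.40 CPM from 11.4 and 11.9 CPM (log2 fold change -0.79), while the pore gene Kcnma1 was at 11.3 and 15.1 CPM against 15.4 and 13.5 CPM. Kcnk5 fell to 1.44 and 1.41 CPM from 3.23 and 3.10 CPM (log2 fold change -1.14). Kcnk10, the leak channel with the clearest difference between stages by p-value, was at 62.5 and 72.3 CPM against 65.0 and 62.4 CPM and did not pass. Of the 3 shaker beta subunits, Kcnab1 rose with a log2 fold change of 0.53, Kcnab2 fell with one of -0.46, and Kcnab3 had one of 0.05 (edgeR, adjusted p = 0.876).

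**Figure D3:**
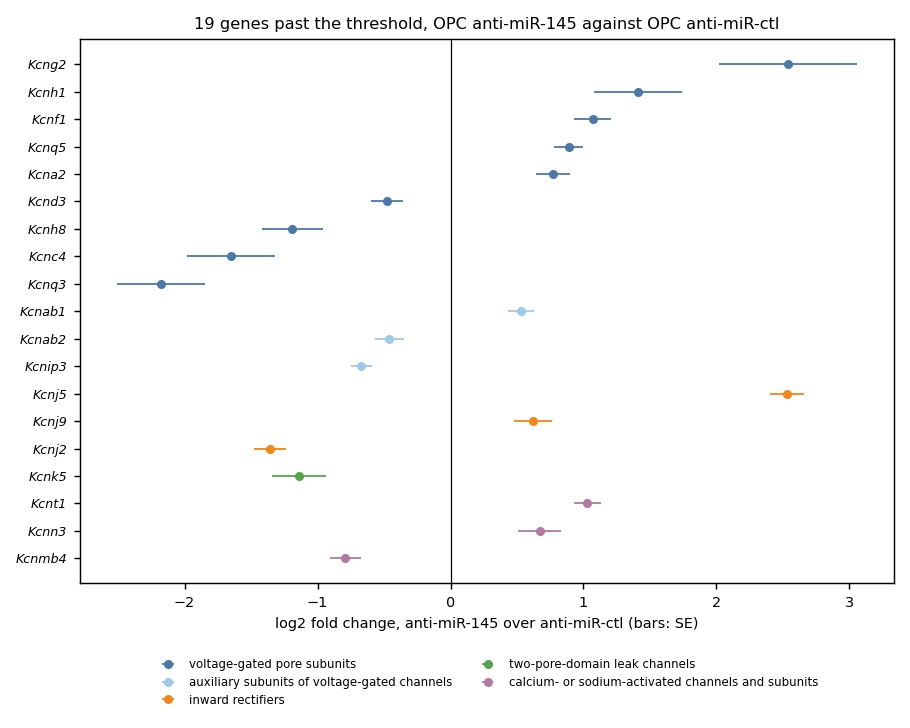
Points give the log2 fold change of OPC anti-miR-145 over OPC anti-miR-ctl for the 19 members past the threshold, coloured by class, and bars give 1 SE. Kcnj5 and Kcng2 lie farthest to the right and Kcnq3 farthest to the left, with the bar of Kcnj5 (SE 0.13) much shorter than that of Kcng2.

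With the miR-145 mimic in OLs no potassium channel gene passed the edgeR threshold in the fit without a replicate block. None of the 15461 genes tested did so either. For this comparison the study, using DESeq2, reported genes in both directions at an adjusted p under 0.05, and measured selected ones by qRT-PCR. Of 62 members tested, 13 had an unadjusted p under 0.05 in the higher direction and 5 in the lower, against 8.99% and 4.38% of all genes. The groups did not overlap for 26 members in the higher and 10 in the lower direction, against 22.9% and 24.4% of all genes. The members had a median of 0.33 on the log2 scale and all genes one of -0.01, and 42 of 62 members were above 0. Kcnj3 is among the 13, the 26 and the 42, but it passed the count filter only through the miR-145 libraries and adds no support. DESeq2 called 5 members higher (Kcna2, Kcne5, Kcnh1, Kcnj16 and Kcnn2) and Kcnn1 lower, where it called 3.46% and 0.737% of all genes. The values below are therefore described, with the spread of 2 libraries, and are not calls of the edgeR test without a replicate block. Both OL miR-145 libraries held more astrocyte RNA than both controls: 8 of 10 astrocyte markers did not overlap in the higher direction, and Gfap, the astrocyte intermediate filament gene, was at 9708 and 6709 CPM against 4799 and 4179 CPM. The part of that in the channel values was not tested.

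Kcnj16 was at 35.4 and 19.6 CPM with miR-145 and 8.12 and 5.53 CPM with miR-ctl (log2 fold change 2.01, SE 0.34, adjusted p = 0.158). Its partner Kcnj10 was at 409 and 377 CPM against 354 and 306 CPM (log2 fold change 0.26, SE 0.13), and its neighbour Kcnj2 at 3.09 and 5.68 CPM against 2.24 and 3.10 CPM, with overlapping groups. Kcnj12 was at 43.3 and 37.7 CPM against 75.5 and 51.7 CPM (log2 fold change -0.65, SE 0.20). The small-conductance pores were split. Kcnn2, which astrocytes and neurons express, was at 21.1 and 16.7 CPM against 9.12 and 7.89 CPM (log2 fold change 1.16, SE 0.18), and Kcnn1 at 6.17 and 5.56 CPM against 11.1 and 9.52 CPM (log2 fold change -0.81, SE 0.19). Kcnn3 was at 17.7 and 17.0 CPM against 15.1 and 9.12 CPM. Kcnn4, known from microglia, was at 1.53 and 4.80 CPM against 0.578 and 1.29 CPM, and 12 microglial markers summed to 421 and 1043 CPM against 415 and 613 CPM. For both the gene and the markers the library numbered 2 was the higher of its group, and whether the markers bear on Kcnn4 was not tested.

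Kcna2 was at 282 and 183 CPM with miR-145 against 117 and 73.9 CPM (log2 fold change 1.29, SE 0.29). Kcna6 was at 19.0 and 24.2 CPM against 35.4 and 31.3 CPM (log2 fold change -0.62, SE 0.17), Kcna3 at 16.3 and 18.9 CPM against 13.1 and 17.7 CPM, and Kcna1 at 37.3 and 48.1 CPM against 64.3 and 41.5 CPM, the last 2 with overlapping groups. The ether-à-go-go genes differed in sign: Kcnh1 was at 5.31 and 5.30 CPM against 2.36 and 1.90 CPM (log2 fold change 1.32, SE 0.25), Kcnh5 at 1.07 and 0.581 CPM against 2.21 and 1.60 CPM, and Kcnh2, the pore of the cardiac rapid delayed rectifier, at 4.10 and 3.69 CPM against 6.46 and 5.28 CPM. Kcnc4 was at 14.2 and 9.17 CPM against 6.61 and 5.04 CPM. Kcne5, an inhibitory single-pass subunit, was at 2.65 and 1.14 CPM against 0.327 and 0.276 CPM (log2 fold change 2.63, SE 0.55). Kcnk10 was at 11.5 and 15.1 CPM against 8.52 and 6.48 CPM. Kcnj3 was at 0.144 and 0.278 CPM and at 0 in both controls. Its mean with miR-145 was 2.52 times the floor of the controls, from counts that are low in every OL library.

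**Figure D4:**
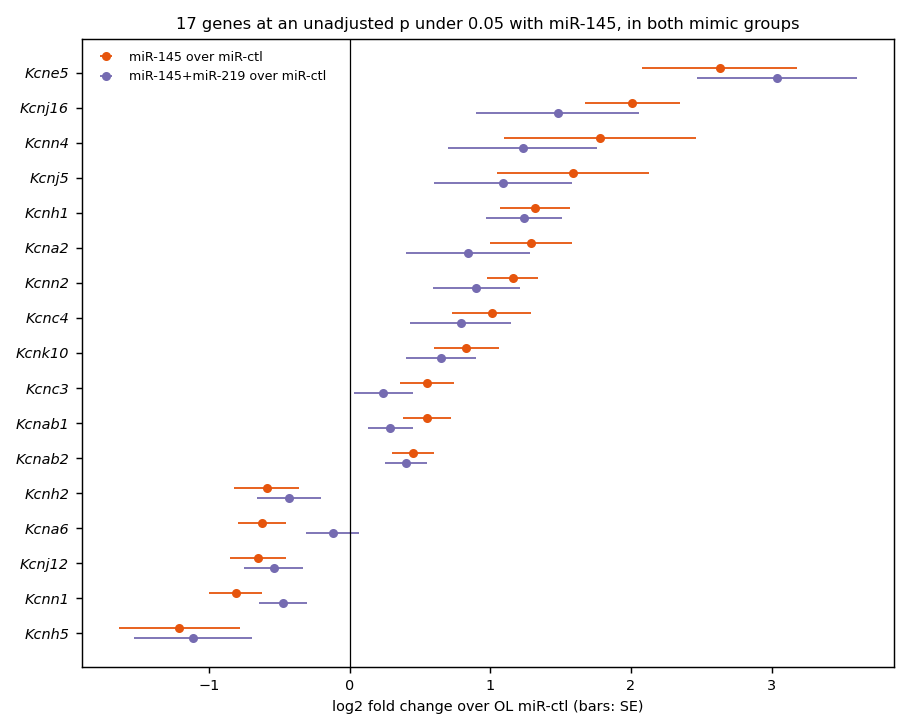
Points give the log2 fold change over OL miR-ctl of 17 of the 18 members at an unadjusted p under 0.05 with miR-145, for miR-145 and for miR-145+miR-219, and bars give 1 SE. Kcnj3, at 0 in both controls, is left out, and the 2 comparisons share their control libraries, so their likeness is no separate evidence.

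With both mimics together, again no member and no gene passed in edgeR without a replicate block. Of 64 members tested, 6 had an unadjusted p under 0.05 in the higher and 2 in the lower direction, against 3.96% and 2.23% of all genes. The groups did not overlap for 19 in the higher and 6 in the lower direction, against 17.3% and 19.4% of all genes. Kcnk4 and Kcnk15 are among the 19, but they passed the count filter only through the libraries of the mimic pair and add no support. DESeq2 called Kcne5 higher, among 0.473% of all genes called in that direction. The median log2 fold change of the members was 0.32, and it was 0.08 without the library numbered 1 of the mimic pair. Kcne5 was at 3.56 and 1.46 CPM, Kcnh1 at 5.81 and 4.24 CPM, Kcnn2 at 20.5 and 11.3 CPM and Kcnab2 at 24.1 and 21.6 CPM, each above both control libraries. Kcnj16 was at 29.1 and 8.90 CPM and Kcna2 at 238 and 103 CPM, so the library numbered 1 stood well above that numbered 2 and, for Kcna2, the lower library lay within the control range. Astrocyte markers were split the same way between these libraries, at 12113 and 7170.4 CPM, and their part was not tested. Kcnn1 was at 7.71 and 7.10 CPM, Kcnh5 at 1.14 and 0.617 CPM, and Kcnj12 at 40.1 and 47.3 CPM, each below both controls.

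Adding the miR-219 mimic to miR-145 moved the members' median by -0.06 on the log2 scale, and their median size of change was 0.30 against 0.12 over all genes. No member and no gene passed in edgeR without a replicate block, and DESeq2 called no member. Of 67 members tested, 1 in the higher direction and 0 in the lower had an unadjusted p under 0.05, against 0.329% and 1.14% of all genes. The groups did not overlap for 10 and 7 members in these directions, against 13.6% and 11.2% of all genes. Kcnk2 among the 10 and Kcnj3 among the 7 passed the count filter through 1 group alone and add no support. The member at an unadjusted p under 0.05 was Kcnma1, the large-conductance calcium-activated pore, at 15.7 and 14.5 CPM with both mimics and 10.2 and 9.02 CPM with miR-145 (log2 fold change 0.64, SE 0.14). In OL miR-ctl it was at 9.20 and 12.7 CPM. Kcna6 was at 25.6 and 35.7 CPM with both mimics against 19.0 and 24.2 CPM with miR-145 alone, next to 35.4 and 31.3 CPM in the controls.

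Mimic and inhibitor were used in different cell stages and share no library, so their values can be set side by side. Of the 10 members that rose with the inhibitor in OPCs, 9 had a log2 fold change above 0 with the miR-145 mimic in OLs and 7 had non-overlapping groups in that direction (Kcna2, Kcnab1, Kcng2, Kcnh1, Kcnj5, Kcnj9 and Kcnn3). Over all 62 members tested with the mimic 67.7% were above 0 and 41.9% did not overlap in the higher direction, and over all genes 48.4% and 22.9%. Of the 9 that fell with the inhibitor, 4 were above 0 with the mimic. Kcnab2 and Kcnc4 had non-overlapping groups in the higher direction there, and Kcnmb4 and Kcnq3 in the lower. Kcnq3, for instance, was at 4.50 and 6.49 CPM with the mimic against 9.55 and 6.97 CPM, and thus below its controls with mimic and inhibitor alike. These are counts over members picked by 1 of the comparisons, without a test of likeness.

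**Figure D5:**
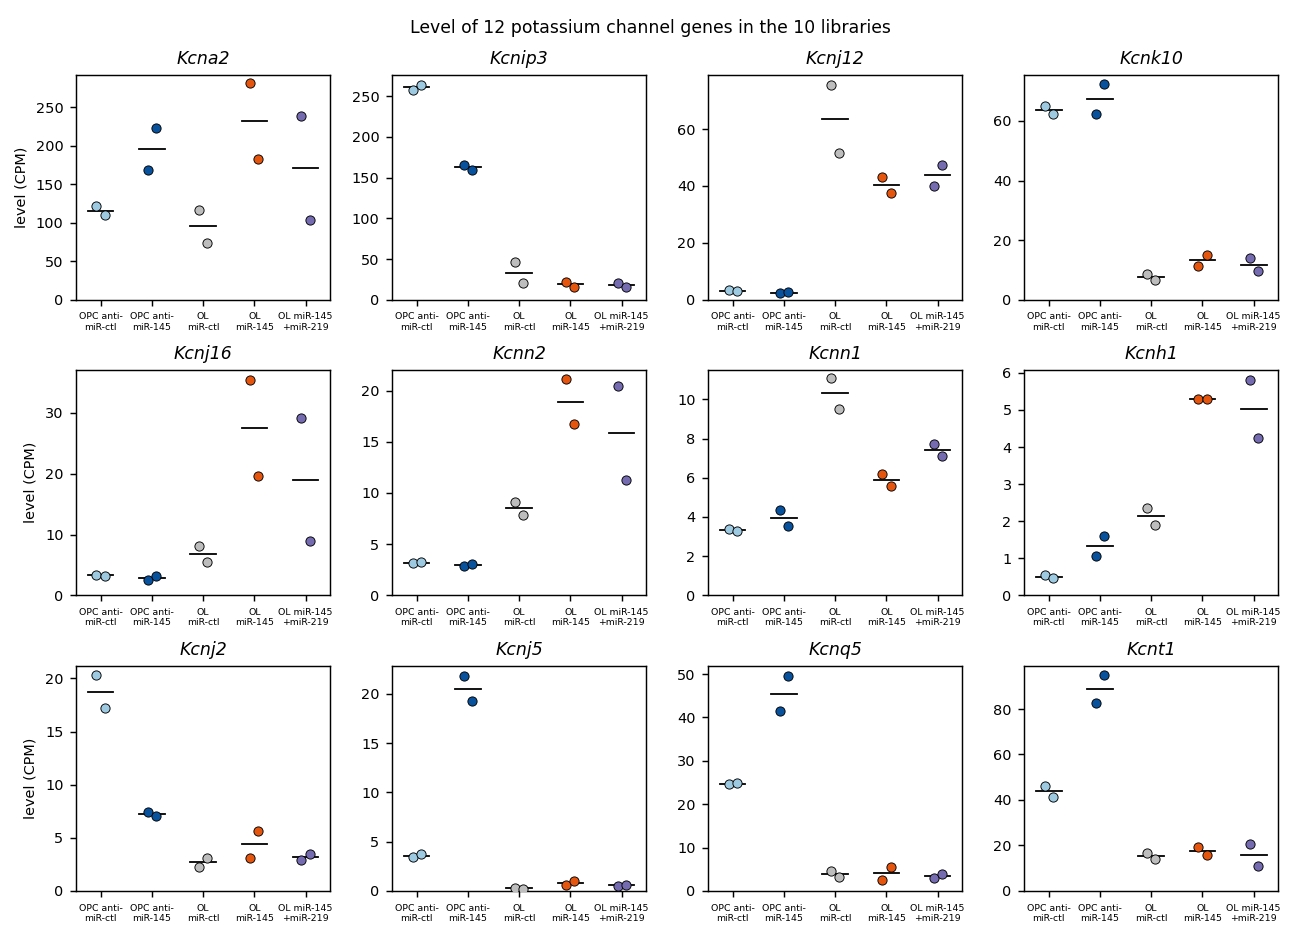
Each panel gives the level in CPM, from 0, of 1 gene in the 10 libraries (points, 2 per group) with the group mean as a line. The 2 points of OPC anti-miR-ctl lie close together in most panels, while those of the OL mimic groups are far apart for Kcna2 and Kcnj16. Kcnj5 is high in OPC anti-miR-145 alone, and Kcnj2 and Kcnj12 are high in opposite stages.

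Within the OL groups a few members varied by library number in the same way throughout. Kcna2 and Kcnk1 were over 1.5-fold higher in the library numbered 1 of all 3 OL groups, and Kcnc2, Kcne4 and Kcnn4 over 1.5-fold higher in that numbered 2, among members with at least 5 counts in all 6 OL libraries. Kcne4, for example, was at 9.50 and 25.3 CPM in OL miR-ctl, 8.65 and 15.3 CPM in OL miR-145, and 9.98 and 23.1 CPM with both mimics. OL markers were also higher in the library numbered 2, at 17644 and 32533 CPM, 16202 and 25901 CPM, and 20193 and 35521 CPM in the same order of groups, and astrocyte markers were higher in that numbered 1. The labels do not say whether libraries with the same number in different groups share a source.

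Other genes that handle potassium were taken from 4 lists, whose counts stand beside 28.8% of all genes higher and 28.7% lower between the stages, and 12.1% and 16.0% with the inhibitor. Of 14 genes of the sodium-potassium and hydrogen-potassium pumps and their regulators, 7 were higher and 3 lower in OL miR-ctl than in OPC anti-miR-ctl. Atp1b2, the glial pump beta subunit, was at 1133 and 1024 CPM against 91.6 and 83.3 CPM. Of 6 cation-chloride cotransporters 3 were higher and 2 lower, with Slc12a7, a potassium-chloride exporter, at 92.6 and 154 CPM against 11.3 and 9.18 CPM. Of 4 hyperpolarisation-activated channels 2 were higher and 1 lower, with Hcn2 at 71.6 and 96.9 CPM against 13.4 and 15.5 CPM. Of 15 channel partners 5 were higher and 3 lower, with Lgi3, a secreted ligand that organises shaker channel complexes, at 105 and 154 CPM against 2.76 and 2.33 CPM. Lrrc55 among the higher, and Lgi1, Hcn4 and Slc12a3 among the lower, passed the count filter through 1 group alone and add no support. With the inhibitor in OPCs, 3 pump genes were higher and 5 lower of 13 tested. Atp1b2 rose to 159 and 201 CPM from 91.6 and 83.3 CPM. A pair of cotransporter genes were lower, no hyperpolarisation-activated channel passed, and 3 partners were higher and 4 lower. Of these, Lrrc55 (higher) and Lrrc38 (lower) passed the count filter through 1 group alone and add no support. Dpp10, an auxiliary subunit of A-type channels, fell to 6.33 and 7.24 CPM from 20.0 and 20.0 CPM (log2 fold change -1.55). No gene of the 4 lists passed edgeR without a replicate block with either mimic treatment. Pump genes did not overlap in the higher direction for 7 of 14 with miR-145, where 22.9% of all genes did, and of these Atp1b2 was at 2304 and 1742 CPM against 1133 and 1024 CPM.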

How the data were processed

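The authors extracted RNA from primary rat cells, made stranded poly(A)-selected libraries, quantified reads against GENCODE transcripts (Rnor6.0) with Salmon 0.12.0 and summed them with tximport. The authors deposited unnormalized estimated counts, one value per gene and library, made by this Salmon and tximport step. The table holds 23487 genes, of which 4030 had 0 counts in all 10 libraries. Between 16.0% and 17.5% of a library's values were not whole, and counts were rounded here. A second deposited table gave symbols and Entrez identifiers. Its DESeq2 fold changes and p-values were not used.

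The 5 comparisons were tested one at a time, using the 4 libraries concerned, in edgeR 4.0.16 (R 4.3.3; TMM, glmQLFit, glmQLFTest), for genes with at least 5 counts in 2 libraries. Benjamini-Hochberg adjustment ran over all genes tested, at 0.05. The SE is the size of the log2 fold change divided by the square root of F. The scripts were tested on simulated data. Alternatives were DESeq2 1.42.0, its size factors, 3 other filters, a single fit of all groups, a replicate block, and leaving out each library. Summaries were made in Python 3.11.15 (pandas 2.3.3, numpy 2.4.6) and plots in matplotlib 3.10.9. Groups came from titles and descriptions. Sequences came from RefSeq (GRCr8). That assembly differs from the authors', so gene coordinates were not used other than for which genes are neighbours.

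The members and lists were chosen with earlier results of these data known. Named were 24 genes with a known place in glia, of which 21 are members, up to 8 members per direction with the smallest p in each comparison (4 where none was called), and the member of highest mean CPM in each class. Other genes were named after their values were seen. Counting intervals are not given, and floors of 3 counts cover counting error only. A few genes are not reported here by name, and counts include them.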

Additional observations from a re-analysis of the deposited data

How the results depend on the processing

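The counts of potassium channel genes past the threshold moved by over 1.5 times under few alternatives. With the miR-145 mimic against miR-ctl, 0 members in edgeR became 6 in DESeq2. With both mimics, 0 became 1 in DESeq2. With the inhibitor in OPCs, the 19 members became 12 in a single fit of all 5 groups and ranged from 12 to 24 when a library was left out. Between OL miR-ctl and OPC anti-miR-ctl the 49 members ranged from 28 to 55 when a library was left out, and the OPC control libraries gave the low ends. With the mimics, leaving out a library gave 0 members in each of the 12 fits. DESeq2's size factors and the 3 other count filters moved no count of members past the threshold by over 1.5 times. Members that changed sign in at least 1 alternative numbered 17 of 62 with miR-145, 27 of 64 with both mimics, 43 of 67 for both mimics against miR-145, 16 of 64 with the inhibitor and 8 of 66 between the stages. None of these had an unadjusted p under 0.05 in edgeR. Among them, Kcna1 with miR-145 went from -0.30 to 0.05 without the library numbered 1 of OL miR-ctl, and Kcnma1 with the inhibitor from -0.11 to 0.06 without that numbered 1 of OPC anti-miR-145. The cause of these shifts was not tested. A fit with 1 library in a group assumes that it varies like the other group.

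Whether libraries with the same replicate number in different groups share a source is not stated, so the comparisons were not treated as paired. Libraries with the same number deviated together in the mimic comparisons (correlations of 0.237, 0.236 and 0.422 across genes) and not in the inhibitor (-0.0738) or stage (0.0295) comparison. With the replicate number as a block, the members called were 20 with miR-145 (15 higher, 5 lower, against 10.00% and 4.70% of all genes), 1 with both mimics, and 2 for both mimics against miR-145, in place of 0 in each. Members at an unadjusted p under 0.05 with miR-145 numbered 32 under the block in place of 18. The block moved no other count of members past the adjusted threshold by over 1.5 times. The floor of 3 counts limits what can be said of members at a few counts.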
